A study of Mus musculus with 10 samples.

Results

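Hox cluster genes are described here in cultured fetal mouse testes: every entry of the count table named Hoxa, Hoxb, Hoxc or Hoxd followed by a paralog number was taken, which gave 39 genes of 24470 entries. By position in mm10, 11 of them lie in the Hoxa cluster (chr6:52155367-52260880), 10 in the Hoxb cluster (chr11:96194361-96368253), 9 in the Hoxc cluster (chr15:102921131-103036852) and 9 in the Hoxd cluster (chr2:74668310-74765142). Within each cluster all Hox genes are on the same strand, minus for Hoxa and plus for the other clusters. By paralog number, 8 are called anterior (1 to 3), 15 central (4 to 8) and 16 posterior (9 to 13).

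The study asked what glycogen breakdown does for the developing testis. Gonads of 5 male C57BL/6 embryos were taken at E12.5 with the mesonephros, the transient embryonic kidney, attached, and cultured on agar for 48 h. One gonad of each embryo received 75 µM GPI (an inhibitor of all glycogen phosphorylases, which reaches every cell type of the explant) and the contralateral gonad received the vehicle, DMSO. Gonads were then separated by hand from the mesonephros and RNA of each whole gonad was sequenced, so that each treatment had 5 libraries, 1 per mouse embryo.

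Hox genes encode homeodomain transcription factors that give cells their position along the head-to-tail axis. Their order in a cluster follows the order in which they are expressed along that axis, posterior genes are held silent by Polycomb proteins in anterior tissue, and retinoic acid induces anterior genes while growth factors of the tail bud induce posterior ones. In the urogenital ridge, gonad, mesonephros and the genital ducts each carry their own combination, with the posterior paralogs patterning the ducts and the kidney.

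Libraries held 10203679 to 15590223 counts with vehicle and 11025409 to 15635322 with GPI. Hox genes took 3428 to 6355 of these counts in a vehicle library and 2975 to 5062 in a GPI library. Values below are normalized counts, that is counts scaled by edgeR's TMM method to the mean effective library size of the 10 libraries. The strand of a read was not used in counting. Entries on the other strand overlap 7 of the 39 genes: Hoxa11os overlaps Hoxa11, Hoxaas2 overlaps Hoxa3, Hoxaas3 overlaps Hoxa3, Hoxa5 and Hoxa6, Hoxb5os overlaps Hoxb5 and Hoxb6, and Hoxd3os1 overlaps Hoxd3. On the same strand, the Hoxa3 entry spans Hoxa4, Hoxa5 and Hoxa6, the Hoxd3 entry spans Hoxd4 and Mir10b, and Hoxc5 holds Mir615. All these overlaps are of whole entries, from first to last base with introns included. Whether exons are shared, so that reads could not be assigned with certainty, was not examined.

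Some libraries stood apart before any comparison. The vehicle gonad of mouse 1 held genes of kidney tubules and ducts: Cdh16, a cadherin of the kidney, was at 113, 1, 48, 0 and 5 normalized counts in the vehicle gonads of mice 1 to 5 and at 10, 21, 3, 0 and 4 in their GPI gonads. It was therefore highest in vehicle mouse 1, present in vehicle mouse 3 and GPI mouse 2, and near 0 in both gonads of mice 4 and 5. Over the 19 mesonephros and duct genes examined, the summed level was 4024, 3009, 3112, 2490 and 2136 with vehicle and 2461, 3238, 2807, 2644 and 2590 with GPI, with Emx2 the most abundant with vehicle, Spp1 with GPI, and no gene of the list at 0 in all 5 libraries of a treatment. Of the 10 of these genes that were tested, Spp1 rose (log2 fold change 0.58) and Cdh1 (-2.65) and Emx2 (-0.73) fell; Pax8 stood at -0.28 without passing the test, and Pax2 was too low to be tested. Their part in the Hox results was not tested. All 10 libraries expressed the Y-linked Ddx3y (1530 to 1979 normalized counts), whereas Xist, which silences the X chromosome in female cells, was at 1679, 60, 55, 642 and 979 with vehicle and at 738, 86, 93, 39 and 53 with GPI.

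In vehicle gonads, the 5 highest medians were those of Hoxc and Hoxd genes. Per kilobase of the longest transcript, the median vehicle level was 500.3 normalized counts for Hoxc8, 376.3 for Hoxd9, 229.2 for Hoxd8, 169.1 for Hoxd10 and 138.6 for Hoxc6. Hoxc8, Hoxd9 and Hoxd8 were not separated as neighbours in this order, because the 5 vehicle libraries of Hoxd9 spread from 138.5 to 474.4. Hoxd8 lay above Hoxd10 in every vehicle library, Hoxc6 above Hoxd4, and Hoxd4 (median 90.9) above Hoxc5 (60.6). From Hoxc5 down to Hoxb2 (1.07) the ranges of all neighbours overlapped. The highest genes of the other clusters were Hoxa5 (50.2) and Hoxa9 (25) in Hoxa, and Hoxb7 (40.1) and Hoxb9 (31.5) in Hoxb. Hoxc8, Hoxd8 and Hoxd9 together took 53% of all Hox counts with vehicle and 53.2% with GPI.

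**Figure D1:**
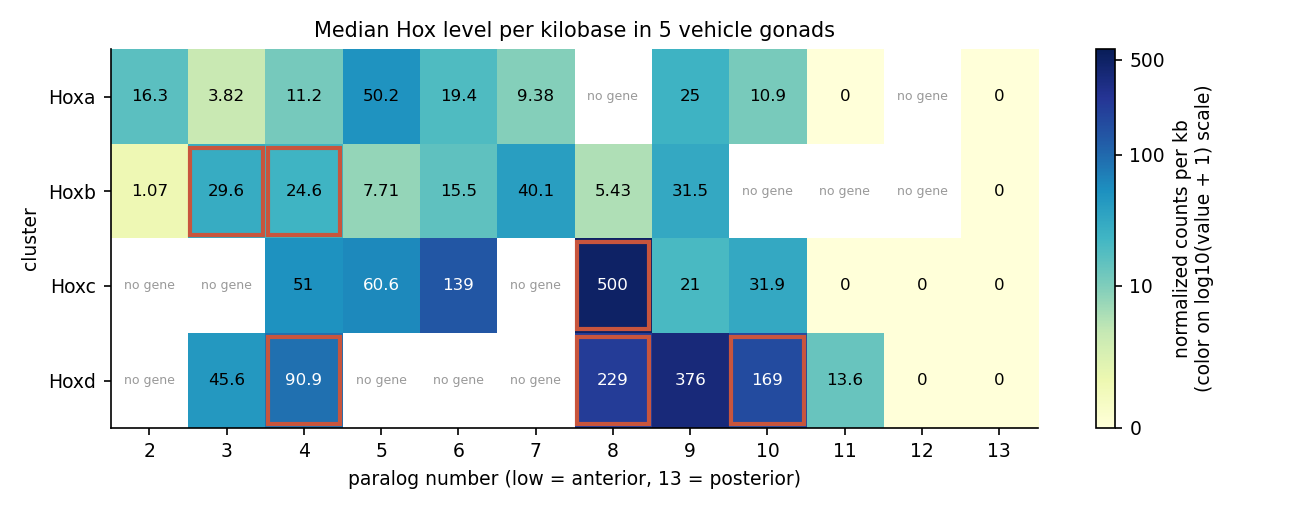
Median level of each Hox gene in the 5 vehicle gonads, in normalized counts per kilobase of transcript (number and color, color on a log10(value + 1) scale), by cluster and paralog number from 2 to 13; outlined genes were called lower with GPI. Hoxc8 (500.3) and Hoxd9 (376.3) are at the top of the range, and the medians of all genes of paralog number 12 and 13 are 0.

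At the posterior end expression stopped sharply. Hoxd11 was the last paralog of its cluster above the low-count filter, at 27, 30, 46, 96 and 133 normalized counts with vehicle and 37, 74, 39, 32 and 60 with GPI. Its vehicle values were highest in mice 4 and 5 and the groups overlapped. All 6 genes of paralog numbers 12 and 13 together reached 0, 1, 2, 0 and 0 normalized counts with vehicle and 3, 0, 2, 1 and 1 with GPI. Hoxa13, Hoxb13 and Hoxc11 had 0 of the 123424805 counts of the 10 libraries.

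The filter on low counts left 25 of the 39 Hox genes for testing and set 14 aside, among them Hoxa3, Hoxb2, Hoxb8, Hoxc11 and all genes of paralog numbers 12 and 13. None of these 14 exceeded 35 raw counts in a library. Of the 25 that passed, 20 were above the cutoff in all 10 libraries; Hoxa2, Hoxa10 and Hoxb5 were above it in all 5 vehicle libraries but not in every GPI library, and Hoxa6 and Hoxa7 the other way round. Hoxb8 was the only set-aside member lower with GPI in 5 of 5 mice, at 24, 14, 6, 16 and 8 normalized counts with vehicle and 3, 8, 3, 12 and 4 with GPI. The groups overlapped, and the gene was singled out after its values were seen.

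With GPI, 6 of the 25 tested Hox genes fell and 0 rose at an FDR of 0.05 by edgeR's quasi-likelihood test with the mouse as a block; of all 13941 tested genes, 11.9% were called lower and 11.1% higher. The 6 were Hoxc8, Hoxd8, Hoxd4, Hoxd10, Hoxb4 and Hoxb3. At an unadjusted p under 0.05, 10 Hox genes were lower and 0 higher, against 2374 lower and 2367 higher of all 13941 tested genes. DESeq2 and limma-voom also called 0 higher, while calling 7 and 6 lower. The median log2 fold change was -0.50 over the 25 Hox genes and 0.02 over all tested genes, and 22 of the 25 had a value below 0 (88%, against 47.5% of all tested genes). Lower counts with GPI in all 5 mice were seen for 8 Hox genes (15.2% of all tested genes), and every GPI library lay below every vehicle library for 4 of them (9.04% of all tested genes): Hoxc8, Hoxd8, Hoxd4 and Hoxb3. Since whole gonads were sequenced, fewer cells that express a gene and less of its RNA per cell cannot be told apart.

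By cluster, 0 of 7 tested genes were called in Hoxa (median log2 fold change -0.50), 2 of 6 in Hoxb (-0.72), 1 of 6 in Hoxc (-0.56) and 3 of 6 in Hoxd (-0.34). By paralog number, 1 of 3 tested anterior genes was called (median -0.18), 4 of 14 central genes (-0.53) and 1 of 8 posterior genes (-0.44). Only the central class held paralogs called in more than 1 cluster: both tested genes of number 8, Hoxc8 and Hoxd8, fell, and of number 4 Hoxb4 and Hoxd4 fell while Hoxa4 (-0.50) and Hoxc4 (-0.20) did not pass the test. Whether clusters or classes differ from each other was not tested.

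**Figure D2:**
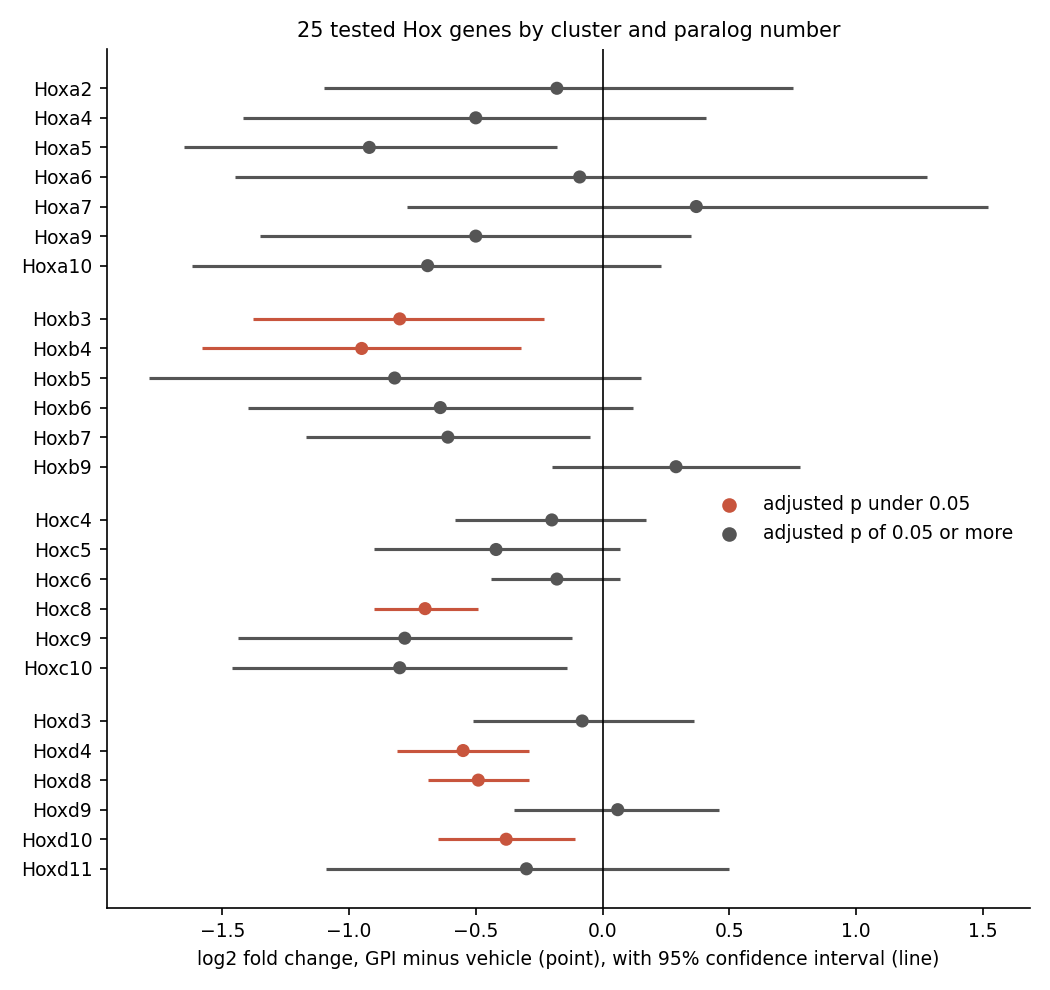
Log2 fold change (GPI minus vehicle, point) with its 95% confidence interval (line) for the 25 tested Hox genes, in order of cluster and paralog number; red marks an adjusted p under 0.05. Hoxc8 (-0.70), Hoxd8 (-0.49) and Hoxd4 (-0.55) have the narrowest intervals among the called genes, and Hoxa7 (0.37), Hoxb9 (0.29) and Hoxd9 (0.06) are the 3 genes above 0.

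RefSeq promoter windows were matched for 22 of the 39 Hox genes, including 4 of the 6 that fell. These 4 are shown because their genes moved in the same direction. Each line gives the 250 bases before the transcription start, 5′ to 3′ on the gene's own strand, which is plus for all 4, in GRCm38.p6; capitals mark matches on either strand to the motifs searched. They are chr2:74704365-74704614 for Hoxd8, chr2:74721728-74721977 for Hoxd4, chr2:74691641-74691890 for Hoxd10 and chr11:96318017-96318266 for Hoxb4.
Hoxd8: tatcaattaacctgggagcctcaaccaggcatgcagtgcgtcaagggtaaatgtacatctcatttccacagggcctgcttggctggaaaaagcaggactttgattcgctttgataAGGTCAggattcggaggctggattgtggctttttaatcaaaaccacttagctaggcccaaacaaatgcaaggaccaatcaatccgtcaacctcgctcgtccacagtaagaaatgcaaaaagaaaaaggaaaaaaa
Hoxd4: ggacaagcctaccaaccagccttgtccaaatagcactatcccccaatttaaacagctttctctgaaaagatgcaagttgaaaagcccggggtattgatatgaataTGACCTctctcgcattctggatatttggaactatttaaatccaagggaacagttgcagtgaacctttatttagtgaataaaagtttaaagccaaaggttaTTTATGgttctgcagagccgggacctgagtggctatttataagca
Hoxd10: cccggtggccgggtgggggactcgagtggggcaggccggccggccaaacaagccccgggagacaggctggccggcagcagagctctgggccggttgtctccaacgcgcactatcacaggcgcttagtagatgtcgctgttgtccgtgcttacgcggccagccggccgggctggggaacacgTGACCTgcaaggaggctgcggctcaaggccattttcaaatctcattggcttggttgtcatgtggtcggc
Hoxb4: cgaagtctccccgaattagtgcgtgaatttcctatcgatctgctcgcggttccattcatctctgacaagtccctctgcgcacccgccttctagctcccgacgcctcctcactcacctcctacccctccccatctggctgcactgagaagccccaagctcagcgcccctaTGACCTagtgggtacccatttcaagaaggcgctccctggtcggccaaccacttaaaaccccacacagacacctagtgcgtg
The motifs were TGATNNAT, the composite site of PBX and HOX proteins, TGACAG for MEIS proteins, AGGTCA, the half-site of retinoic acid and other nuclear receptors, and TTTATG for CDX proteins. AGGTCA matched once in each of the 4 windows, at bases -135 to -130 from the start in Hoxd8, -145 to -140 in Hoxd4, -69 to -64 in Hoxd10 and -81 to -76 in Hoxb4, on the plus strand in Hoxd8 and on the minus strand in the others. TTTATG matched in Hoxd4 at -45 to -40, TGATNNAT and TGACAG matched in none of the 4, and no matches overlapped. Over all 32851 promoter windows of this length, 14% held AGGTCA, 10.8% TTTATG, 15.9% TGACAG and 7.68% TGATNNAT. Over the 24 windows of Hox genes, AGGTCA was found in 6 (25%), the other 2 being those of Hoxc4 and Hoxd3, which were not called. TTTATG was found in 5 of the 24 (20.8%), TGATNNAT in 4 (16.7%) and TGACAG in 2 (8.33%). The motifs were chosen after the calls were seen. A match describes letters only and shows no binding.

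In the Hoxc cluster, Hoxc8 (Entrez 15426, chr15:102990539-102994254), a thoracic patterning gene, had the highest median vehicle level of the Hox genes, not separated from Hoxd9 per kilobase. It was counted at 1443, 1276, 1112, 1050 and 1029 in the vehicle gonads of mice 1 to 5 and at 869, 961, 610, 529 and 721 in their GPI gonads. The lowest vehicle gonad lay above the highest GPI gonad, and each GPI gonad lay below its own partner. Hoxc8 had means of 1182 ± 175 with vehicle and 738 ± 178 with GPI (SD, n = 5 each) and fell to 61.6% by the fitted ratio, with a log2 fold change of -0.70 (SE 0.09, edgeR adjusted p = 0.000111).

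Hoxc6 (Entrez 15425, chr15:103009562-103011881), also a gene of the thoracic region and the next in level per kilobase in this cluster, was at 296, 270, 213, 219 and 213 with vehicle and at 225, 214, 205, 220 and 193 with GPI. Mice 1 and 2 had the highest vehicle values and the groups overlapped. Its log2 fold change of -0.18 (SE 0.12, edgeR adjusted p = 0.308, lower in 4 of 5 mice) did not pass the test, with a 95% interval of -0.44 to 0.07. The other tested genes of the cluster were below 0 without passing: Hoxc4 at -0.20, Hoxc5 at -0.42, Hoxc9 at -0.78 and Hoxc10 at -0.80. Hoxc10 was lower with GPI in 5 of 5 mice and Hoxc9 in 4 of 5, with adjusted p of 0.08 and 0.0865 by edgeR.

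In the Hoxd cluster 3 genes were called, and Hoxd9, which lies between 2 of them, was not. Hoxd8 (Entrez 15437, chr2:74704615-74707933), a gene of the trunk, was at 580, 604, 620, 564 and 670 with vehicle and at 422, 377, 439, 453 and 471 with GPI. All GPI gonads lay below all vehicle gonads, and the spread within each group was small. The means were 607.4 ± 40.9 and 432.5 ± 35.8 (SD, n = 5 each), and Hoxd8 fell to 71.1% with a log2 fold change of -0.49 (SE 0.09, edgeR adjusted p = 0.00135, lower in 5 of 5 mice).

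Hoxd4 (Entrez 15436, chr2:74721978-74729160), a gene of the hindbrain and neck whose induction by retinoic acid is well known, was at 225, 233, 268, 207 and 271 with vehicle and at 172, 152, 174, 154 and 168 with GPI. Again no GPI gonad reached the lowest vehicle gonad. Hoxd4 fell to 68.2%, a log2 fold change of -0.55 (SE 0.12, edgeR adjusted p = 0.00433, lower in 5 of 5 mice). The whole span of Hoxd4 lies within that of Hoxd3 on the same strand, introns included, and shared exons were not examined. Hoxd3 itself was at 127, 87, 156, 135 and 164 with vehicle and 97, 158, 99, 116 and 168 with GPI, overlapping throughout (log2 fold change -0.08, SE 0.20, edgeR adjusted p = 0.833, lower in 3 of 5 mice).

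Hoxd10 (Entrez 15430, chr2:74691891-74695106), a gene of the lumbar region and limb, was at 156, 251, 307, 324 and 321 with vehicle and at 107, 239, 222, 207 and 277 with GPI. The groups overlapped, with vehicle mice 1 (156) and 2 (251) below GPI mouse 5 (277), but each GPI gonad lay below its partner. Hoxd10 fell to 76.8% (log2 fold change -0.38, SE 0.12, edgeR adjusted p = 0.041), and when the pairing by mouse was not used in the fit its log2 fold change was -0.37 with an adjusted p of 0.277 (0.0217 to 0.277 over all alternatives).

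Hoxd9 (Entrez 15438, chr2:74697763-74700208), which lies between Hoxd8 and Hoxd10, was at 527, 296, 893, 804 and 1013 with vehicle and at 598, 692, 719, 703 and 717 with GPI. The vehicle gonads spread from 296 to 1013 while the GPI gonads lay close together, so that mice 3, 4 and 5 were lower and mice 1 and 2 higher with GPI. The means were 706.7 ± 291.2 and 685.7 ± 50.4 (SD, n = 5 each), with a log2 fold change of 0.06 (SE 0.19, edgeR adjusted p = 0.871) and a 95% interval of -0.35 to 0.46. Hoxd11 had a log2 fold change of -0.30 (95% interval -1.09 to 0.50) and did not pass the test.

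In the Hoxb cluster, the called genes were neighbours towards its anterior end. Hoxb4 (Entrez 15412, chr11:96318267-96321638), a gene of the hindbrain and neck and of blood progenitors, was at 178, 63, 121, 54 and 53 with vehicle and at 46, 62, 37, 43 and 34 with GPI. Vehicle mice 1 and 3 were high, mouse 2 differed little between its gonads, and the groups overlapped. Hoxb4 fell to 51.9%, a log2 fold change of -0.95 (SE 0.29, edgeR adjusted p = 0.0311, lower in 5 of 5 mice). This call was lost without mouse 1 (-0.69), 3 or 5 and without mice 1 and 3 (-0.35).

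Hoxb3 (Entrez 15410, chr11:96323126-96347930), a hindbrain gene, was at 241, 76, 78, 100 and 94 with vehicle and at 58, 70, 74, 47 and 59 with GPI. Vehicle mouse 1 stood far above the rest, and the lowest vehicle gonad was just above the highest GPI gonad. Hoxb3 fell to 57.3%, a log2 fold change of -0.80 (SE 0.27, edgeR adjusted p = 0.0442, lower in 5 of 5 mice). This call was lost without mouse 1 (-0.50), 4 or 5, without mice 1 and 3, and after removal of the GC content and length trend (-0.74, edgeR adjusted p = 0.0678, range 0.0108 to 0.177 over all alternatives).

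The highest Hoxb genes per kilobase were not called. Hoxb7 (Entrez 15415, chr11:96286646-96290163), a trunk gene also active in the nephric duct, was at 75, 55, 51, 52 and 29 with vehicle and at 53, 45, 24, 29 and 23 with GPI. It was lower with GPI in all 5 mice, but vehicle mouse 5 was as low as the GPI gonads and the test was not passed (log2 fold change -0.61, SE 0.26, edgeR adjusted p = 0.113). Hoxb9 (Entrez 15417, chr11:96271330-96276595), a gene of the posterior trunk, was at 104, 81, 67, 98 and 72 with vehicle and at 57, 118, 96, 129 and 123 with GPI. It was higher with GPI in mice 2 to 5 and lower in mouse 1, a log2 fold change of 0.29 (SE 0.23, edgeR adjusted p = 0.411) that did not pass the test. Hoxb5 (-0.82) and Hoxb6 (-0.64) were below 0, also without passing.

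In the Hoxa cluster no gene was called. Hoxa5 (Entrez 15402, chr6:52201754-52204587), a gene of the neck, thorax and lung, was at 339, 94, 116, 81 and 80 with vehicle and at 73, 156, 44, 64 and 29 with GPI. Vehicle mouse 1 and GPI mouse 2 were the high values, and the groups overlapped. The log2 fold change was -0.92 (SE 0.34, edgeR adjusted p = 0.0704, lower in 4 of 5 mice); DESeq2 gave an adjusted p of 0.0172, within a range of 0.00534 to 0.682 over all alternatives. Hoxa9 (Entrez 15405, chr6:52223097-52227370), a gene of the posterior trunk and blood progenitors, was at 89, 35, 22, 91 and 81 with vehicle and at 24, 81, 31, 38 and 44 with GPI. High and low gonads occurred in both groups, and the log2 fold change of -0.50 (SE 0.39, edgeR adjusted p = 0.42, lower in 3 of 5 mice) did not pass the test. The remaining tested genes, Hoxa2, Hoxa4, Hoxa6, Hoxa7 and Hoxa10, lay between -0.69 (Hoxa10) and 0.37 (Hoxa7), with standard errors of 0.42 to 0.63.

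**Figure D3:**
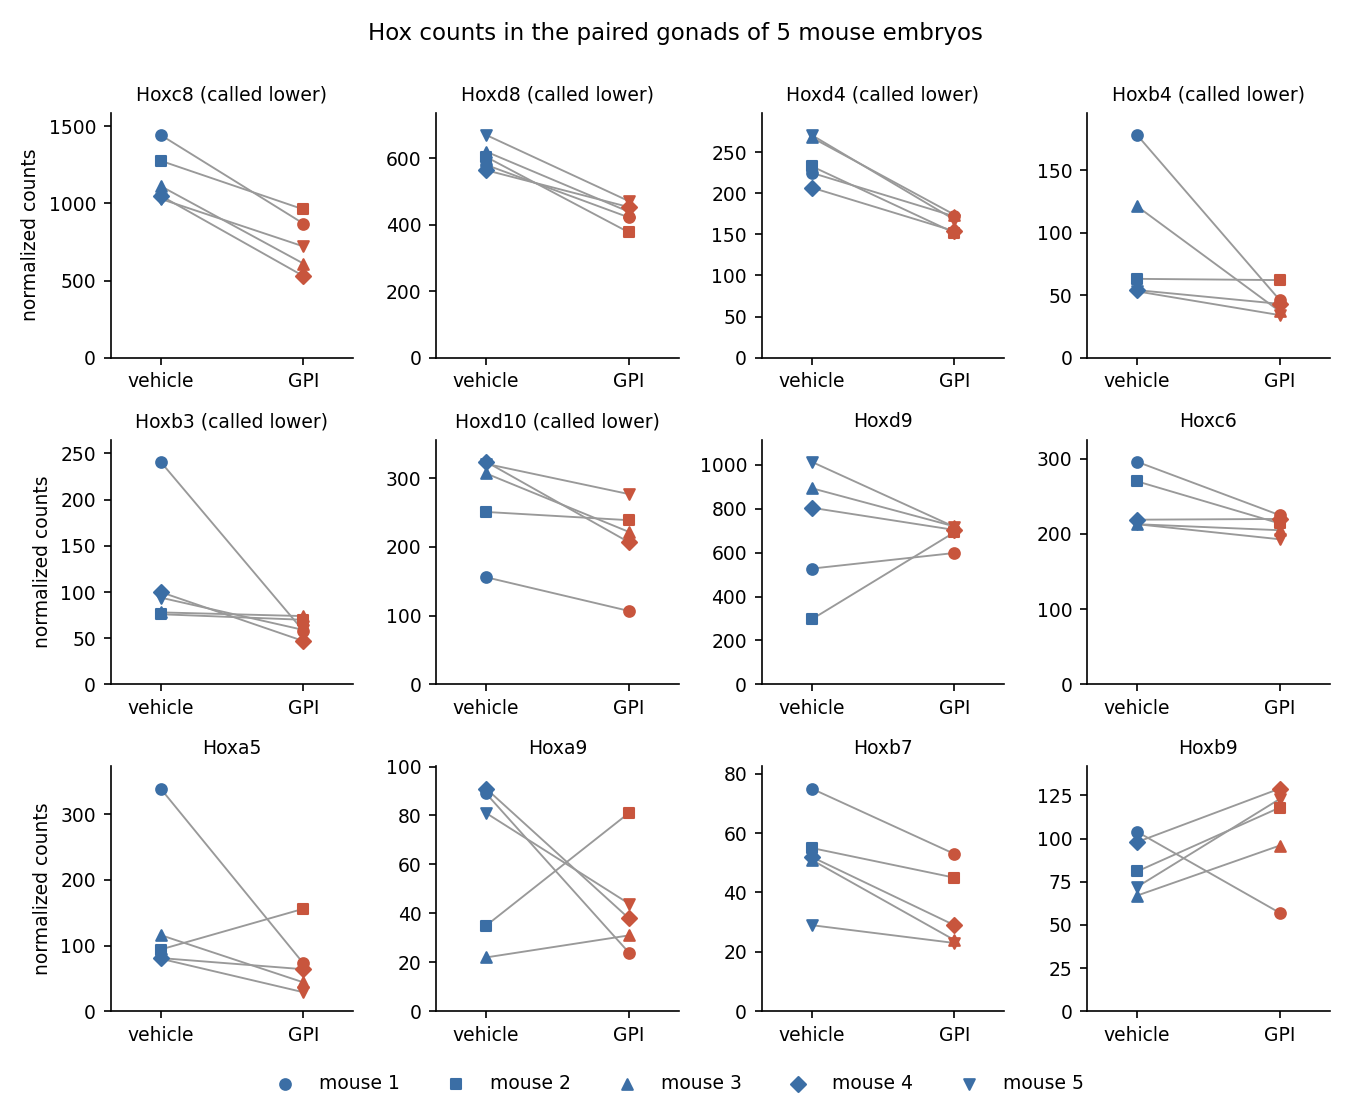
Normalized counts of 12 Hox genes in the vehicle (blue) and GPI (red) gonads of 5 mice; lines join the gonads of a mouse and symbols mark the mouse, with each vertical axis starting at 0. Hoxc8, Hoxd8, Hoxd4 and Hoxb3 have no overlap between treatments, and the 5 lines of Hoxd9 converge on GPI values of 598 to 719.

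Summed over all 39 genes, Hox transcripts stood at 5475, 4091, 4740, 4399 and 4842 normalized counts with vehicle and at 3330, 4104, 3252, 3174 and 3571 with GPI. The GPI gonad was lower in 4 of 5 mice and about level with its partner in mouse 2. The mean with GPI was 74% of that with vehicle over all genes and 77.9% without Hoxc8. The Hoxc sum was 2170, 2037, 1742, 1587 and 1615 with vehicle and 1396, 1531, 1074, 1014 and 1216 with GPI, lower in 5 of 5 mice and without overlap. Hoxa sums (921, 208, 295, 319 and 314 against 246, 507, 217, 199 and 193), Hoxb sums (736, 344, 405, 361 and 336 against 247, 365, 267, 291 and 300) and Hoxd sums (1647, 1502, 2298, 2133 and 2577 against 1440, 1701, 1694, 1670 and 1862) were each lower in 4 of 5 mice, with mouse 2 the exception in all 3 clusters. Of the mean sums, central paralogs took 64.5% with vehicle and 58.9% with GPI, and posterior paralogs 28.7% and 34.2%. These sums carry no test.

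Some calls were lost when 1 mouse was left out, which also leaves 8 libraries in the fit. Without mouse 1, whose vehicle gonad held the tubule genes, 3 Hox genes were called lower, and without mouse 5 also 3; in both cases they were Hoxc8, Hoxd8 and Hoxd4. Those 3 were called under all 14 alternatives, which include edgeR, DESeq2 and limma-voom, with adjusted p up to 0.00436 for Hoxc8, 0.0174 for Hoxd8 and 0.0327 for Hoxd4. Without mouse 1, by edgeR, Hoxb3 had a log2 fold change of -0.50 (adjusted p = 0.168, range 0.0108 to 0.177 over all alternatives), Hoxb4 of -0.69 (adjusted p = 0.123, range 0.00663 to 0.579) and Hoxd10 of -0.36 (adjusted p = 0.0713, range 0.0217 to 0.277). Hoxb4 also lost its call without mouse 3 (log2 fold change -0.77) or mouse 5 (-1.02), Hoxb3 without mouse 4 (-0.74) or mouse 5 (-0.83), and Hoxd10 without mouse 3 (-0.38), 4 (-0.31) or 5 (-0.43). Without mouse 5, the log2 fold changes of the 3 genes were thus no smaller in size than with all mice.

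Among the vehicle gonads, that of mouse 1, which held the tubule genes, was the highest for 13 of the 25 tested Hox genes: Hoxa2, Hoxa4 to Hoxa7, Hoxb3, Hoxb4, Hoxb5, Hoxb7, Hoxb9, Hoxc4, Hoxc6 and Hoxc8. It was the lowest for Hoxc10, Hoxd10 and Hoxd11. Hoxa4 to Hoxa7 summed to 684, 123, 188, 149 and 128 with vehicle and to 166, 313, 93, 130 and 92 with GPI, so that vehicle mouse 1 came first and GPI mouse 2 second. Hoxa7 alone was at 180, 7, 26, 18 and 19 with vehicle and at 57, 79, 21, 29 and 29 with GPI. With mice 1 and 3 left out together, a choice made after seeing these values, 4 Hox genes were called lower, of which Hoxc8, Hoxd8 and Hoxd4 were shared with the calls from 5 mice and Hoxc9 was added, and the median log2 fold change of the tested Hox genes was -0.31.

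**Figure D4:**
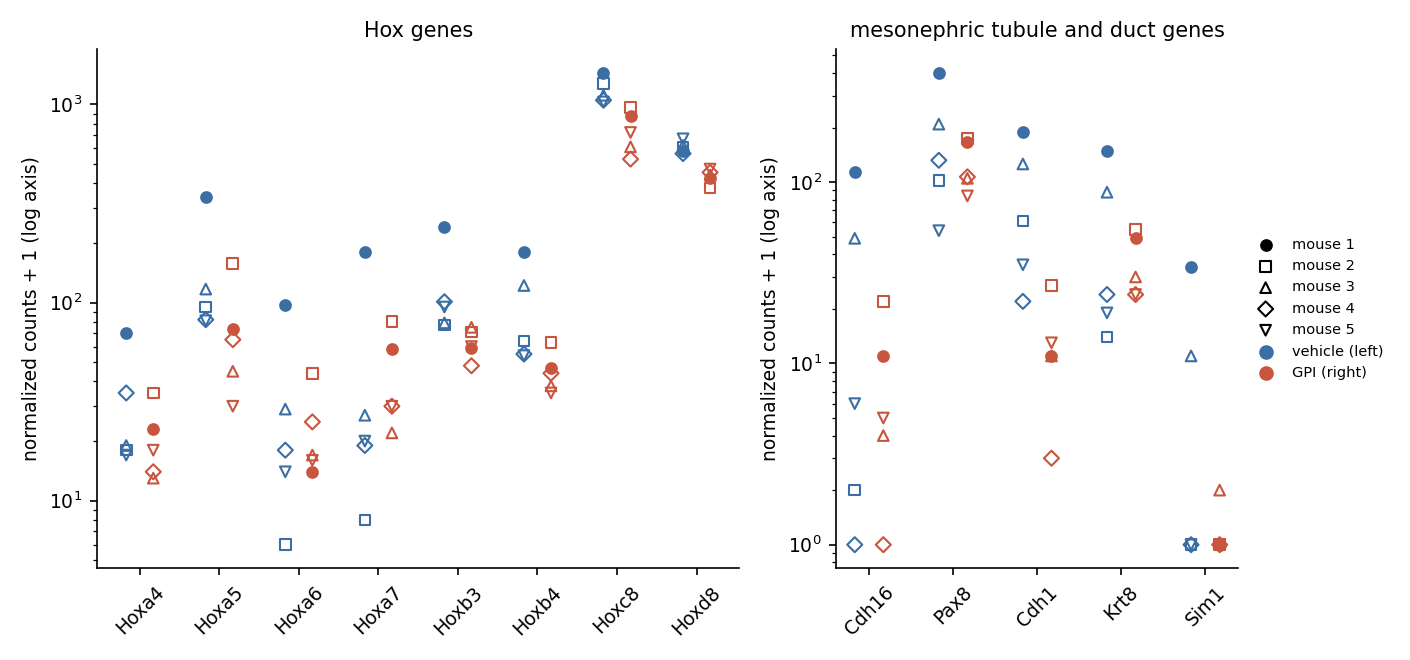
Normalized counts plus 1 (log axis) of 8 Hox genes and 5 mesonephric tubule and duct genes in each gonad, vehicle in blue at left and GPI in red at right, with symbols for mice and filled symbols for mouse 1. The vehicle gonad of mouse 1 is the highest for 7 of the 8 Hox genes, Hoxc8 (1443) included, as for Cdh16 (113), and for Hoxd8 (580) it is within the range of the other vehicle gonads. The genes shown are a selection. Over all 25 tested Hox genes, vehicle mouse 1 was the highest vehicle gonad for 13 and the lowest for 3. Not every gene of the duct list was highest there, as Gata3, not shown, was at 109, 218, 165, 55 and 206 with vehicle.

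Noncoding entries in or beside the clusters were mostly near 0. Of 21 listed, 17 were in the table, among them Mir3081, which lies on chromosome 16 away from the clusters. Of these, 4 were tested and 1 was called lower (25%, against 11.9% of all tested genes). That 1 was Haglr, the antisense transcript at Hoxd1, at 140, 118, 146, 145 and 91 with vehicle and 71, 89, 94, 93 and 88 with GPI. Its groups overlapped only through vehicle mouse 5 (log2 fold change -0.54, SE 0.18, edgeR adjusted p = 0.0414, lower in 5 of 5 mice). Hoxd3os1, on the strand opposite Hoxd3, had a log2 fold change of -0.63 (edgeR adjusted p = 0.0527, lower in 4 of 5 mice) and Hotairm1, in the Hoxa cluster, of -1.02 (adjusted p = 0.0828, lower in 4 of 5 mice). Hottip, at the posterior end of Hoxa, was at 0 in all 10 libraries, and Hotair, of the posterior Hoxc cluster, was above 0 in vehicle mouse 3 (2) and GPI mouse 2 (10) only. Halr1, outside the anterior end of Hoxa, was at 3, 1, 2, 17 and 8 with vehicle and at 0 in all GPI libraries; it was too low to be tested and was singled out after its values were seen.

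Micro RNAs of the clusters are shown because an entry of one of them lies inside the Hoxd4 locus. The mature 5′ arms from RefSeq (GRCm38.p6), with the seed, bases 2 to 8, in capitals, fall into 2 seed groups. Those of Mir10a (chr11:96317186-96317208, plus strand) and Mir10b (chr2:74726074-74726096, plus strand) share the seed ACCCUGU, and those of Mir196a-1 (chr11:96265187-96265208, plus strand) and Mir196b (chr6:52230129-52230150, minus strand) share AGGUAGU.
miR-10a-5p: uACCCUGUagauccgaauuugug
miR-10b-5p: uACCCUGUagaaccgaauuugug
miR-196a-5p: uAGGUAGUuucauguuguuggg
miR-196b-5p: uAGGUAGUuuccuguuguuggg
The entry Mir10b was at 48, 31, 50, 55 and 46 with vehicle and at 15, 34, 47, 28 and 35 with GPI. The groups overlapped and the log2 fold change of -0.57 (SE 0.31, edgeR adjusted p = 0.225, lower in 4 of 5 mice) did not pass the test. These are fragments of longer RNA over the hairpin, which lies inside Hoxd4 and Hoxd3, and not counts of the mature micro RNA. Mir10a, Mir196a-1, Mir196a-2 and Mir196b did not exceed 7 normalized counts in any library.

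Of 22 entries within 200 kb outside the cluster ends, 11 were tested and 1 was called lower (9.09%, against 11.9% of all tested genes), Igf2bp1 on the Hoxb13 side of the Hoxb cluster, which fell with a log2 fold change of -0.36 (SE 0.09, edgeR adjusted p = 0.00958, lower in 5 of 5 mice). The median log2 fold change was -0.13 over these 11 genes. Inside the clusters, 6 entries other than Hox genes were tested, with a median of -0.56, and Haglr was the called one. Mira, beside Hoxa7 on the same strand, was at 164, 35, 36, 30 and 34 with vehicle and 85, 58, 49, 78 and 42 with GPI, highest in vehicle mouse 1 as Hoxa7 was (log2 fold change 0.36, SE 0.30, edgeR adjusted p = 0.455, lower in 1 of 5 mice).

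Partners and regulators of Hox genes were read from lists. Among the cofactors of Hox proteins, Pbx2 (-0.19) and Pbx3 (-0.14) did not pass the test. Of 8 Cdx, Evx and ParaHox genes, which share ancestry with the Hox clusters or act on them, 0 could be tested, and their sum did not exceed 6 normalized counts in a library, with all 8 at 0 in every GPI library.

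Of 29 tested Polycomb genes, 1 rose and 1 fell (3.45% each, against 11.1% and 11.9% of all tested genes). Phc3 of the first Polycomb complex was higher, at 0.21, and Ezh1, a methyltransferase of the other, was lower, at -0.43. The Ezh1 homolog Ezh2 (0.07) and Rnf2 (0.22) did not pass. Of 22 tested genes of the opposing Trithorax group and the demethylases of the Polycomb mark, 2 rose (9.09%) and 3 fell (13.6%). Mllt3, a reader in the elongation complex that works with Dot1l, fell by 0.79 on the log2 scale, Kmt2a, the methyltransferase that maintains Hox expression, had a log2 fold change of -0.27 and the demethylase Kdm6b one of -0.26, while Dot1l (0.33) and Aff4 (0.19) rose and Kmt2b (-0.06) did not pass. Median log2 fold changes were -0.04 and 0.00 in these lists.

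Of 15 tested signals that set axial Hox expression, 4 rose (26.7%, against 11.1% of all tested genes) and 3 fell (20%, against 11.9%). Cyp26b1, which degrades retinoic acid, rose by a log2 fold change of 1.81, and its level was 880, 587, 615, 786 and 1071 with vehicle and 2268, 2628, 2855, 3229 and 2622 with GPI, far apart in every mouse. Aldh1a1, a retinoic acid synthesis enzyme and the most abundant gene of the list, rose by 1.65, the synthesis enzyme Aldh1a3 had a log2 fold change of -1.09 and the receptor Rara one of -0.29. Gdf11, which promotes posterior Hox expression, rose by 0.75, and its receptor Tgfbr1 by 0.35. Its other receptor of the list, Acvr2b, was at -0.28 and lower in 5 of 5 mice without passing the test. Of 21 tested homeobox genes outside the clusters, 3 rose (14.3%, against 11.1% of all tested genes) and 7 fell (33.3%, against 11.9%). Their median was -0.33. Hhex (-2.86) and Zeb1 (-0.47) fell and Zfhx4 (0.62) rose, while Lhx9 (0.03) did not pass and Lhx2 was too low to be tested. Their part in the Hox results was not tested.

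Markers of cell types moved between the treatments as well, and their part in the Hox results was not tested. In none of the following lists was a gene at 0 in all 5 libraries of a treatment. Over all tested genes, 11.9% were called lower and 11.1% higher. Endothelial genes were called lower in 10 of 10 cases (Cdh5 -3.63, Pecam1 -4.16, Flt1 -5.18); they summed to 7939, 8285, 7647, 8788 and 7911 with vehicle and 908, 1073, 729, 590 and 766 with GPI, with Cdh5 the most abundant with vehicle and Kdr with GPI. Smooth muscle and pericyte genes were called lower in 4 of 7 (Pdgfrb, the most abundant with vehicle, -1.55, Rgs5 -4.32, Cspg4 -1.44), whereas Acta2, the most abundant with GPI (-0.12), and Myh11 (-0.15) did not pass, and the sums were 4140, 4990, 5265, 4832 and 4604 against 2898, 2602, 2708, 2236 and 2531. Macrophage genes were called lower in 6 of 7 (Csf1r -2.22, C1qb -1.91, and Lyz2, the most abundant, -1.65; Adgre1, at -0.26, did not pass), with sums of 956, 764, 738, 665 and 711 against 346, 322, 334, 224 and 181.

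Erythroid genes were called lower in 6 of 8 (Slc4a1 -4.80, Hba-a1 -1.59, with Hba-x at -0.45 not passing); their sums, led by Hbb-y, were 1778, 2270, 3788, 3255 and 2965 against 1801, 949, 907, 1037 and 2370. Germ cell genes were called lower in 5 of 6 (Ddx4 -2.72, Dazl -4.62, Dppa3 -5.20, Sall4 -4.89), with sums of 1702, 2909, 2115, 2755 and 1518 against 909, 712, 750, 958 and 928. Kit, at -0.16 the only tested gene of the list that did not pass, was the most abundant and made up 776, 609, 721, 924 and 826 of the GPI sums. Fetal Leydig genes were called higher in 6 of 6 (Cyp17a1 3.90, Cyp11a1 2.90, Fdx1 1.41), with sums of 1963, 3663, 4834, 2696 and 6494 against 11388, 11639, 17742, 20632 and 14881, led by Hsd3b1 with vehicle and Cyp11a1 with GPI. Genes of testis identity were called higher in 8 of 10 (Nr5a1 1.11, Sox8 1.43, Sox9 0.59). Amh at 0.08 and Wt1, the most abundant, at -0.14 did not pass. The list summed to 11117, 12976, 10948, 12714 and 12565 against 11827, 14087, 13956, 15719 and 15251. Interstitial genes were called higher in 2 of 9 (Maf 0.49, Pdgfra 0.33) and lower in 3, among them Sfrp1 (-0.38), the most abundant, while Nr2f2 (-0.18) did not pass; sums were 28101, 28885, 28191, 24070 and 27878 against 25376, 28638, 24678, 23492 and 30584. Genes of the coelomic epithelium were called higher in 1 of 6 (Bnc1 0.43, with Aldh1a2, the most abundant, at 0.23, Upk3b at 0.23 and Krt19 at -0.05 not passing) and summed to 2164, 2056, 2084, 1759 and 1685 against 2403, 2287, 2208, 2139 and 2349.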

How the data were processed

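RNA of 10 single gonads, 5 per treatment, was sequenced in read pairs from amplified libraries. The authors mapped pairs with STAR 2.5 to mm10, counted them per NCBI RefSeq Curated gene with featureCounts (Subread 1.5.0-p1), unstranded. The deposited count of each gene entered the fits unchanged, and 0 value columns were left unmatched to a sample. Lengths came from the longest GENCODE M21 transcript of each Entrez identifier, found for all 39 Hox genes and for 95.42% of tested genes. No pair of libraries of the same treatment was a duplicate (chi-square per degree of freedom at least 6.49).

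The low-count filter was filterByExpr of edgeR, set to a minimum count of 10 and a total of 15; 13941 genes passed it and 10529 did not. Scaling was by TMM. Tests used the quasi-likelihood F statistic of edgeR with a design of mouse and treatment and Benjamini-Hochberg adjustment over all tested genes at an FDR of 0.05. Pairing comes from the labels, which give both gonads of an embryo the same number; deviations from the treatment mean correlated at 0.06 on average within a mouse and at -0.0147 between mice. Without the replicate block, 3108 genes were called, 6 Hox genes among them, all lower, and the median log2 fold change of tested Hox genes was -0.54. A standard error is the size of the log2 fold change over the root of F. Error estimates rest on differences among mice, because reads after PCR, with no molecular identifiers, do not stand for separate molecules and counting error alone is only a floor.

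Named one by one were every called Hox gene and the 2 genes of each cluster with the highest median vehicle level per kilobase; from each list, the first 2 genes and the 3 with the smallest p, with all called cofactor and noncoding genes and called genes within 200 kb of a cluster; further genes were named after their values were seen, and some genes under this rule are not reported here. The members and lists were chosen with earlier results of these data known, and the motifs after the calls were seen. Haglros, Hoxb3os, Hoxb7os, Hoxa10os and Muc16 of the lists had no entry. Other tools tried were limma-voom and DESeq2. Other scalings were total counts only and the size factors of DESeq2. Other gene choices were genes with 10 or more counts in each library and all genes without a low-count filter. The fit was also repeated with no replicate block, with a trend on GC content and length removed while the block stayed in, and without each mouse; leaving out mice 1 and 3 together was added after the data were seen. The procedure was tested on simulated data, where small changes were recovered less often than large ones and false calls were a larger share than the FDR. Software: edgeR 4.0.16, DESeq2 1.42.0 and limma 3.58.1 under R 4.3.3.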

Additional observations from a re-analysis of the deposited data

Results flagged for a closer look

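The 25 tested Hox genes in each treatment gave 50 sets of 5 libraries. The sets share libraries and are not independent, so no comparison with chance was drawn. Among these sets, 5 held a library far from the others. In 4 of them it was the vehicle gonad of mouse 1: Hoxa5 at 339 normalized counts (80 to 116 in the other vehicle gonads), Hoxa6 at 96 (5 to 28), Hoxa7 at 180 (7 to 26) and Hoxb3 at 241 (76 to 100). Cdh16, a kidney gene, was highest in the same gonad, and its part in these values was not tested. The other was the GPI gonad of mouse 1 for Hoxd9, at 598 against 692 to 719.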

How the results depend on the processing

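Hoxc8, Hoxd8 and Hoxd4 were called lower under each alternative, and 0 Hox genes were called higher under any. The number called lower, 6, was 3 to 7 with 1 mouse left out, 3 without mouse 1 and 3 without mouse 5; fewer libraries entered these fits. It was 7 by DESeq2, 8 without the low-count filter, 5 after removal of the GC content and length trend with the replicate block kept, and 4 without mice 1 and 3. Without the replicate block it was 6, Hoxd10 being lost and Hoxc9 gained, and 3108 genes in all were called in place of 3198. The median log2 fold change of tested Hox genes ran from -0.69 to -0.41 with 1 mouse left out and was -0.31 without mice 1 and 3.

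Signs turned 17 times, in Hox genes that were not called under either setting; the cause was not tested. Hoxa7 was at -0.17 by limma-voom, -0.19 without the block and -0.26 to 1.01 with 1 mouse left out. Hoxd9 was at -0.05 without the block and -0.21 to 0.20 with 1 mouse left out. With 1 mouse left out, Hoxa6 ran from -0.75 to 0.62, Hoxa2 from -0.67 to 0.12, Hoxd3 from -0.30 to 0.05 and Hoxd11 from -0.69 to 0.05. After removal of the trend, Hoxa6 and Hoxd3 were at 0.00. Without mice 1 and 3, Hoxa6 was at 1.14, Hoxa2 at 0.23, Hoxd3 at 0.19 and Hoxc5 at 0.02. Among the other values for single genes, 306 kept their side of the threshold, 15 lost a call and 7 gained one. Without the low-count filter 36 of the 39 Hox genes were tested, and 0 of the otherwise set-aside genes among them were called.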

Other observations

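Of the 8 tested posterior paralogs, 3 had their highest vehicle levels in mice 4 and 5. In the vehicle gonads of mice 4 and 5, Hoxd11 was at 96 and 133 normalized counts against 27 to 46 in mice 1 to 3, Hoxa10 was at 38 and 69 against 24 to 28, and Hoxd10, by a narrow margin, at 324 and 321 against 156 to 307. Hoxa9 (89, 35, 22, 91 and 81 in vehicle mice 1 to 5), Hoxd9 (527, 296, 893, 804 and 1013), Hoxb9 (104, 81, 67, 98 and 72), Hoxc9 (42, 86, 37, 50 and 85) and Hoxc10 (43, 94, 45, 69 and 61) did not follow this order. Posterior paralogs summed to 1014, 897, 1447, 1568 and 1835 with vehicle and to 902, 1331, 1245, 1165 and 1316 with GPI, a standard deviation of 390.5 against 174.9. Whether the spread differs between treatments was not tested.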
